A study of Homo sapiens with 8 samples.

Results

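The genes described here encode the subunits of oxidative phosphorylation. They were chosen by symbol (NDUFA, NDUFB, NDUFC, NDUFS or NDUFV followed by a digit, SDHA to SDHD, UQCR, COX4 to COX8, and ATP5), and 81 genes of the 19775 measured matched. Among the probe sets naming a single gene, the brightest on average over all arrays stood for that gene. Of the 81 members, 35 belonged to complex I, 3 to complex II, 6 to complex III, 18 to complex IV and 19 to ATP synthase. The match was by name alone, so that 76 members were protein-coding, 3 were non-coding RNAs (NDUFB2-AS1, NDUFV1-DT and NDUFV2-AS1) and 2 were pseudogenes (COX6A1P1 and ATP5MC2P1).

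The cells were MDA-MB-453, a human breast cancer line that lacks estrogen receptor. Before treatment they were starved of steroids for 3 days, by medium without phenol red and 5% serum cleared with charcoal. The groups then received 10 nM dihydrotestosterone (DHT), an androgen made from testosterone, for 4, 16 or 48 h, or vehicle. Total RNA of 8 cultures, 2 biological replicates in each of the 4 groups, was hybridised to Affymetrix arrays. No time is recorded for the vehicle cultures, which serve as baseline throughout, so the effect of DHT and that of time in culture cannot be told apart, and all results are of 1 cell line. All 3 groups of DHT arrays were compared with the same vehicle arrays.

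Complex I takes electrons from NADH and complex II takes them from succinate. Both pass them through ubiquinone to complex III, cytochrome c and complex IV, where oxygen is reduced. Complexes I, III and IV pump protons across the inner mitochondrial membrane, and ATP synthase uses their return to make ATP. A few subunits of complexes I, III and IV and of ATP synthase are encoded by mitochondrial DNA and lie outside the symbol rule. The nuclear genes are active in nearly every cell, and some subunits of complex IV exist as a common form and as a form of muscle, lung or testis. Low oxygen is known to lower the use of this pathway through the HIF transcription factors, which induce PDK1, BNIP3 and LDHA.

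The promoters of COX6A2 (the heart and muscle form of subunit VIa), which differed between DHT times, and of its partner COX6A1 (the form of most other tissues) are shown with that of ATP5MC1, the member with the clearest difference over time. Each run holds the 250 bases before the gene's start, 5′ to 3′ on the gene's strand, from RefSeq windows on GRCh38.p14. Capitals mark matches on either strand to GCATGCGC (the core bound by NRF1, a regulator of mitochondrial genes), CCGGAAG (ETS factors such as GABP), AAGATGGCG (YY1), AAGGTCA (estrogen-related receptors), ACGTG (hypoxia factors, which also lies within the E-box CACGTG) or TATAAA (the TATA box).
COX6A2, chr16:31428361-31428610, minus strand: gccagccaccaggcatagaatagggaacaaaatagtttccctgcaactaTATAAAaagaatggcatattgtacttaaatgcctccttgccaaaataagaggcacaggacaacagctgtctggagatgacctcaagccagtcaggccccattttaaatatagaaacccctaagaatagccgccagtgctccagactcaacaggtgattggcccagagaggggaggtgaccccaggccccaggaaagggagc
COX6A1, chr12:120437863-120438112, plus strand: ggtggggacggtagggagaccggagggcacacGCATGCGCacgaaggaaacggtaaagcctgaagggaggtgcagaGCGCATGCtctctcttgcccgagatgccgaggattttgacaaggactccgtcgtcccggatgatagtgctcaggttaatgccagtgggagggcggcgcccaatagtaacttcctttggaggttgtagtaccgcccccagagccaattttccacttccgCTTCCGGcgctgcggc
ATP5MC1, chr17:48892537-48892786, plus strand: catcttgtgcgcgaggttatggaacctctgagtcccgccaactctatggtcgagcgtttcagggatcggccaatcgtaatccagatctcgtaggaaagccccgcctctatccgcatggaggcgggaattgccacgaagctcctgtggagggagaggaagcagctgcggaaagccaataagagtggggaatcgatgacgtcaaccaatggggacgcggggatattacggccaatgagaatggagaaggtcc

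The COX6A1 stretch held the NRF1 core at a pair of places and the ETS core near the start. The COX6A2 stretch held only a letter match to TATAAA, at -201 to -196 from the start. The ATP5MC1 stretch held none of these letters. Its window that runs on to 50 bases after the start did hold the E-box, and with it the hypoxia core. A window of 300 bases, from 250 before to 50 after the start, was at hand for 68 of the 81 members (81 windows, as some genes have several). The NRF1 core stood in 17.3% of the members' windows, against 3.05% of all 35116 windows. The ETS core stood in 24.7% against 10.3%, the YY1 core in 11.1% against 1.75%, and the estrogen-related receptor site in 13.6% against 3.92%. The hypoxia core stood in 25.9% against 21.4%, the E-box in 11.1% against 7.26%, and the TATA box in 8.64% against 11.5%. These shares describe letters in a window and were not tested.

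The level of the oxidative phosphorylation genes differed little between DHT-treated and vehicle cells at each time. The median log2 change from vehicle was -0.04 at 4 h, -0.03 at 16 h and 0.01 at 48 h, where all 19775 genes had medians of 0.00, 0.02 and 0.01. On the probe set that stood for it, no member differed by more than 0.39 log2 units from vehicle, that is by more than 1.31-fold. Some further probe sets of members, described below, had larger changes. In bulk RNA, fewer cells of a type and less RNA per cell cannot be told apart, and because the submitters' normalisation gives each array the same distribution, a shift of all transcripts together would not be seen.

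A linear model of the 4 groups, fitted over all genes (limma, Benjamini-Hochberg adjustment, called at adjusted p below 0.05), called 0 of 81 members at 4 h, against 0.177% of all genes. At 16 h it called 1 of 81, against 6.85% of all genes (2.55% higher and 4.3% lower). At 48 h it called 0 of 81, against 9.51% of all genes (3.13% higher and 6.38% lower). At an unadjusted p below 0.05 there were 4 members at 4 h (7.84% of all genes), 11 at 16 h (19.9%) and 7 at 48 h (22%). These were 2 higher and 2 lower at 4 h, 4 higher and 7 lower at 16 h, and 3 higher and 4 lower at 48 h. Counting only whether the replicates of the groups did not overlap, 39 members at 16 h (14 higher, 25 lower) and 36 at 48 h (19 higher, 17 lower) were separated from vehicle, against 47% and 51.8% of all genes. The smallest p of an exact permutation test of 2 arrays against 2 is 0.333, so the p-values rest on the model alone.

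The members were bright on these arrays, and brightness bears on the share of genes called. A mean log2 signal of 10 or more was reached by 67 of the 81 members (82.7%) and by 22.2% of all genes. Among all genes this bright, 14.3% were called at 16 h and 19.3% at 48 h. Of the 67 bright members 0 were called at either time, and 8 and 5 had an unadjusted p below 0.05. The standard deviation of the log2 changes over the members was 0.11 at 4 h, 0.14 at 16 h and 0.13 at 48 h. Over the bright genes it was 0.16, 0.33 and 0.37. For 80 of 81 members at 4 h, 78 at 16 h and 80 at 48 h, the 95% confidence interval of the change lay within 1.5-fold in both directions. The same was true of 95%, 79.4% and 77.2% of bright genes. Each interval is of a single gene and is not adjusted for the number of genes.

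**Figure D1:**
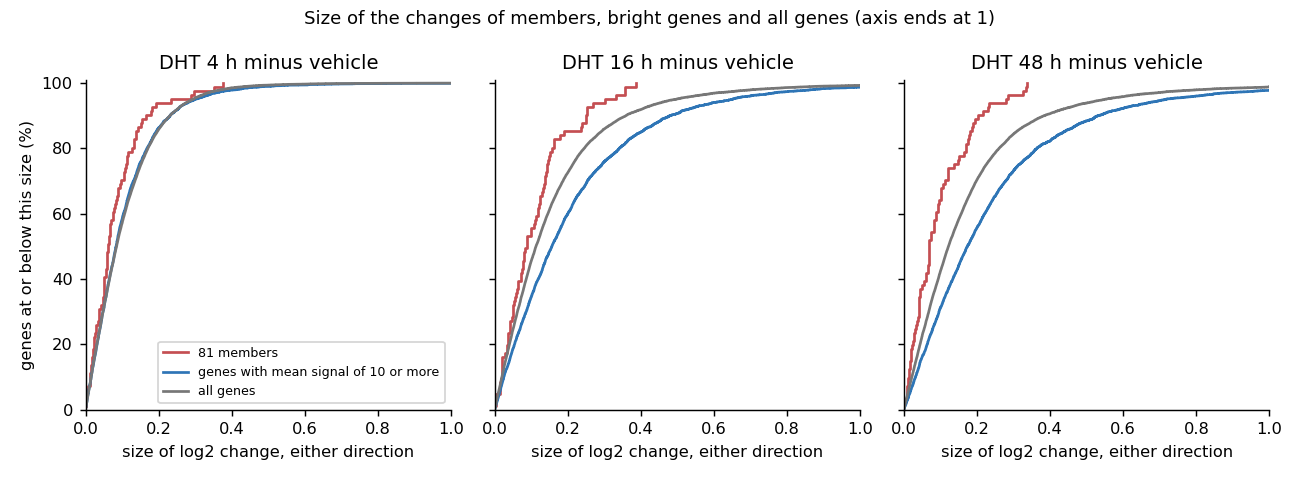
Cumulative share of genes (vertical axis, percent) by the size of their log2 change from vehicle in either direction (horizontal axis) for the 81 members (red), genes with mean log2 signal of 10 or more (blue) and all genes (grey), at 4, 16 and 48 h of DHT. The members' median size of change was 0.06, 0.09 and 0.07, against 0.08, 0.16 and 0.17 for the bright genes, and no member exceeds 0.39.

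Averaged over their members, 4 of the 5 complexes stayed within 0.06 log2 units of vehicle at all times, and complex II lay lowest at 16 h. These averages describe the arrays and carry no test, since members are not replicates. The mean over the 35 complex I genes differed from vehicle by -0.04 at 4 h, -0.04 at 16 h and -0.02 at 48 h, with a pooled spread between replicates of 0.05 (SD, n = 2 a group). For the 6 complex III genes the differences were -0.04, -0.01 and 0.04, with a spread of 0.05. For the 18 complex IV genes they were 0.02, -0.01 and 0.04, with a spread of 0.03. For the 19 ATP synthase genes they were -0.05, 0.00 and -0.02, with a spread of 0.05. For the 3 complex II genes they were -0.08, -0.19 and -0.09, with a spread of 0.03. The 2 arrays at 16 h had complex II means of 11.35 and 11.33, against 11.54 and 11.52 on the vehicle arrays.

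**Figure D2:**
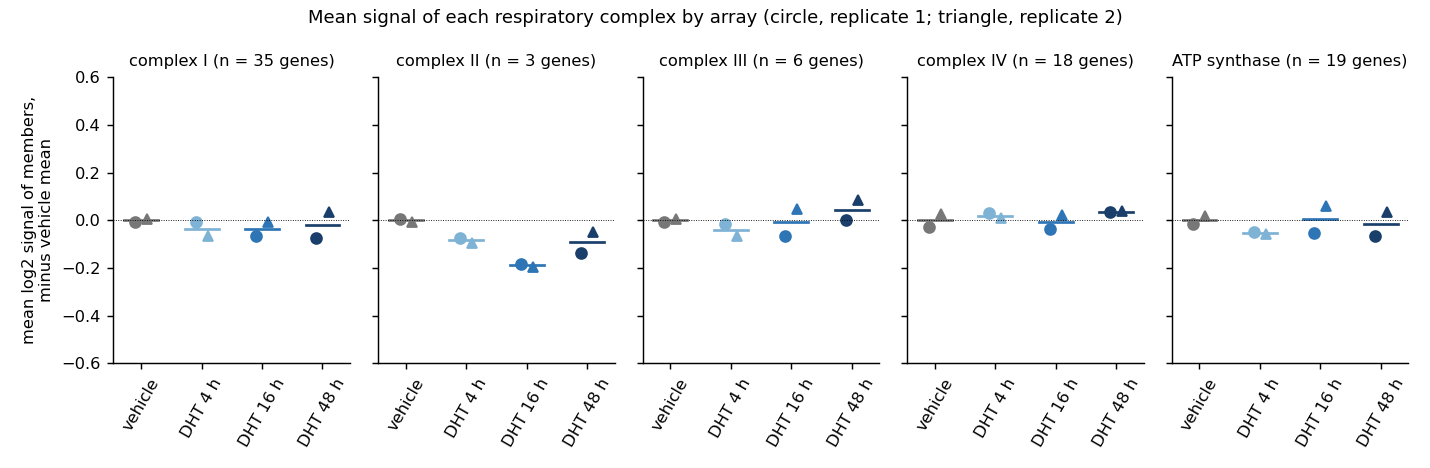
Mean log2 signal of the members of each complex on each array, less the mean of the vehicle arrays (vertical axis), for vehicle and DHT at 4, 16 and 48 h. Circles are replicate 1, triangles replicate 2 and lines group means; the complex II mean lies 0.19 below vehicle at 16 h, with both arrays below, and the other complexes stay near 0.

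Most members leaned the same way between the replicates of 2 groups. On DHT 16 h replicate 2, 60 of 81 members were higher than on replicate 1. The members' median difference was 0.08, against 0.03 for all genes. On DHT 48 h replicate 2, 61 of 81 were higher, also by a median of 0.08, against -0.00055 for all genes. DHT 16 h replicate 2 stood apart from the other arrays on the second principal component (-23.1 against -0.51 to 10.8). Its 3′ over 5′ difference of the ACTB control probe sets was 1.52 log2 units, against 0.20 to 0.94 on the other 7 arrays, and that of GAPDH was 0.82 against 0.19 to 0.35. Their part in the results was not tested. Without this array the median change of the members at 16 h was -0.07, against 0.01 for all genes and -0.04 for bright genes. By complex the median was then -0.06 for complex I, -0.18 for complex II, -0.07 for complex III, -0.06 for complex IV and -0.09 for ATP synthase.

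Complex I, the NADH dehydrogenase, was measured by 32 protein-coding members, and 0 of its 35 members were called at any time. Its highest change was in NDUFB2-AS1 at 4 h (0.10 ± 0.09, SE), in NDUFA11, a membrane arm subunit, at 16 h (0.16 ± 0.13), and in NDUFA7 at 48 h (0.17 ± 0.10). NDUFA11 read 11.97 and 12.31 at 16 h, against 11.99 and 11.97 in vehicle cells, and leaving out DHT 16 h replicate 2 its change was -0.0077. The values below vehicle were larger, but none passed the test.

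NDUFS1, the largest subunit of the NADH-binding module and a carrier of iron-sulphur clusters, read 11.17 and 10.98 at 16 h, against 11.49 and 11.37 in vehicle cells. Both 16 h arrays lay below both vehicle arrays. The log2 change at 16 h was -0.36 ± 0.11 (n = 2 each, limma adjusted p = 0.0791). At 48 h it read 11.26 and 11.48, within the vehicle range on 1 array and below it on the other, a change of -0.06 ± 0.11 (limma adjusted p = 0.807). The 4 further probe sets of NDUFS1 had changes of -0.28, 0.10, -0.12 and -0.19 at 16 h, so that they did not all share its direction.

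NDUFA5, an accessory subunit of the arm that passes electrons to ubiquinone, read 10.34 and 10.29 at 4 h, against 10.76 and 10.62 in vehicle cells. The groups did not overlap, but the change of -0.38 ± 0.13 was not called (limma adjusted p = 0.491). It stayed below vehicle at 16 h (-0.30 ± 0.13, limma adjusted p = 0.219) and at 48 h (-0.23 ± 0.13, limma adjusted p = 0.330). One of the 48 h arrays read 10.66 and overlapped vehicle, and the other read 10.24.

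NDUFB1, a small subunit of the distal membrane arm, read 12.96 and 13.12 at 48 h, against 13.37 and 13.28 in vehicle cells, a change of -0.28 ± 0.11 (limma adjusted p = 0.164). NDUFB6, of the same arm, read 11.95 and 11.98 at 16 h, against 12.21 and 12.23 in vehicle cells. Its change was -0.25 ± 0.09 (limma adjusted p = 0.142), with -0.24 on its other probe set. NDUFA6 had -0.25 ± 0.10 at 16 h and -0.23 ± 0.10 at 48 h, with no call, and its other probe set had -0.0036 and -0.067. The other NDUFB1 probe set had -0.089 at 48 h. In each of these genes the DHT arrays lay below the vehicle arrays at the time named. NDUFB6 and NDUFA6 were picked after the values were seen.

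Complex II, succinate dehydrogenase, is the enzyme that the chain shares with the tricarboxylic acid (TCA) cycle, and SDHA, SDHC and SDHD were measured, with SDHB not analysed here. SDHA, the flavoprotein that oxidises succinate, read 10.96 and 11.03 at 16 h, against 11.25 and 11.22 in vehicle cells. SDHC, a membrane anchor that binds haem and ubiquinone, read 11.87 and 11.94, against 11.99 and 12.10. SDHD, the other anchor, read 11.21 and 11.02, against 11.37 and 11.25. All 3 genes were lower on both 16 h arrays than on both vehicle arrays. Such a separation at 16 h, in either direction, was found in 47% of all genes and 60.4% of bright genes.

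The changes at 16 h were -0.24 ± 0.09 for SDHA, -0.14 ± 0.09 for SDHC and -0.19 ± 0.12 for SDHD, and 0 of 3 were called (smallest limma adjusted p = 0.158). At 48 h SDHA had -0.17 ± 0.09, SDHC -0.12 ± 0.09 and SDHD 0.02 ± 0.12, and SDHD overlapped vehicle. The 6 further probe sets of SDHC ranged from -0.56 to 0.08 at 16 h, and 5 of them were below 0. SDHA and SDHC were read by probe sets of the _x_at kind, which can match more than 1 transcript.

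Complex III, the cytochrome bc1 complex, had 0 of 6 members called. UQCRB, which helps bind ubiquinone, read 12.82 and 12.90 at 4 h, against 13.18 and 13.12 in vehicle cells, a change of -0.29 ± 0.11 (limma adjusted p = 0.533). The 4 h arrays lay below vehicle, and its 3 further probe sets had -0.24, -0.22 and -0.28. At 16 h and 48 h UQCRB had -0.03 and -0.10. UQCRC2, a core subunit, read 12.33 and 12.51 at 48 h, against 12.20 and 12.20 in vehicle cells, a change of 0.22 ± 0.10 (limma adjusted p = 0.223). UQCR11, a small subunit, was the highest member at 4 h and 16 h (0.11 and 0.13), and UQCR10, another small subunit, the lowest at 16 h (-0.07), all with standard errors of 0.09 to 0.11. UQCRFS1 was not analysed here.

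Complex IV, cytochrome c oxidase, held the 1 member called against vehicle and the 1 called between DHT times, and both are isoforms known from heart and skeletal muscle. COX7A1, the muscle form of subunit VIIa, read 7.27 and 7.49 at 4 h, 7.41 and 7.42 at 16 h and 7.34 and 7.27 at 48 h, against 6.95 and 7.10 in vehicle cells. Every DHT array was above both vehicle arrays. The log2 change was 0.35 ± 0.10 at 4 h (limma adjusted p = 0.386), 0.39 ± 0.10 at 16 h (limma adjusted p = 0.0479) and 0.28 ± 0.10 at 48 h (limma adjusted p = 0.135). The call at 16 h stood just inside the threshold and was lost when any 1 of the 8 arrays was left out. Without DHT 16 h replicate 2 the change was 0.38 (limma adjusted p = 0.141). Its signal lies near the dimmest 25% of all genes, which end at 7.13. COX7A2, the form of most tissues, read 12.73 and 12.94 at 16 h, against 12.84 and 12.88 in vehicle cells, a change of -0.02 ± 0.11.

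COX6A2, the muscle form of subunit VIa whose promoter is printed above, differed between the DHT times. It read 7.57 and 7.43 at 16 h, against 7.88 and 7.91 at 4 h, a difference of -0.39 ± 0.09 (limma adjusted p = 0.0444), where 3.05% of all genes were called and 1 of 81 members. The groups did not overlap. In vehicle cells it read 7.71 and 7.77, between the 4 h and the 16 h values, and at 48 h it read 7.77 and 7.75. Its changes from vehicle were 0.15 at 4 h, -0.24 at 16 h and 0.02 at 48 h, with no call. When DHT 16 h replicate 2 was left out, the difference between the times was -0.32 (limma adjusted p = 0.230). The call was kept in 1 of the 8 fits that left out an array. COX6A1, the common form, read 14.10 and 14.03 at 16 h, against 14.30 and 14.23 at 4 h, a difference of -0.20 ± 0.09 (limma adjusted p = 0.353). Both isoforms were lower at 16 h than at 4 h, and the difference between them was not tested. At an unadjusted p below 0.05, 7 members differed between 16 h and 4 h, against 14.3% of all genes. Between 48 h and 16 h 0 of 81 were called (0.829% of all genes) and 5 passed unadjusted (10.7% of all genes).

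The other isoforms of complex IV had 0 calls. COX4I1, the common form of subunit IV, had changes of 0.00, 0.03 and 0.07 at 4, 16 and 48 h, and COX4I2, its lung form that low oxygen is known to induce, had 0.05, 0.11 and 0.04 (standard errors 0.09 and 0.10). COX8A, the common form of subunit VIII, had -0.02, -0.15 and -0.17, each ± 0.09. COX7A2L, which helps join complexes III and IV, read 12.00 and 12.15 at 16 h, against 11.78 and 11.87 in vehicle cells, a change of 0.25 ± 0.10 (limma adjusted p = 0.172). Both 16 h arrays lay above vehicle, as at 48 h, where it read 12.06 and 11.98. The forms known from testis, COX6B2, COX7B2 and COX8C, had changes of 0.05, -0.12 and 0.10 at 16 h and were picked after the values were seen. COX7C was the lowest at 4 h (-0.13 ± 0.09), and the pseudogene COX6A1P1 was the lowest at 16 h and 48 h (-0.27 ± 0.12 and -0.32 ± 0.12, limma adjusted p = 0.223 and 0.119).

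ATP synthase had 0 of 19 members called at any single time. The F test over all DHT times called 1 of 81 members, ATP5MC1 (limma adjusted p = 0.0376), against 8.9% of all genes. ATP5MC1 encodes the c subunit of the rotor ring, and the ATP5MC2 and ATP5MC3 genes encode the same mature protein. It read 10.39 and 10.63 at 16 h and 10.42 and 10.56 at 48 h, against 10.10 and 10.21 in vehicle cells, and 10.08 and 10.09 at 4 h. The 16 h and 48 h arrays all lay above the vehicle arrays. The changes were 0.36 ± 0.11 at 16 h (limma adjusted p = 0.0733) and 0.34 ± 0.11 at 48 h (limma adjusted p = 0.0754), just outside the threshold, and -0.07 ± 0.11 at 4 h. The difference between 16 h and 4 h was 0.42 ± 0.11 (limma adjusted p = 0.0596). The F test lost its call in all but 1 of the fits that left out an array, the exception being DHT 16 h replicate 1. With either DHT 16 h array left out, ATP5MC1 passed the threshold at 48 h. ATP5MC2 had changes of -0.18, -0.06 and 0.05 at the 3 times and ATP5MC3 had -0.11, -0.04 and -0.02, with standard errors of 0.09.

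ATP5F1D, the delta subunit of the rotor, read 10.95 and 11.18 at 16 h, against 10.72 and 10.76 in vehicle cells, with both 16 h arrays higher. Its change was 0.33 ± 0.10 (limma adjusted p = 0.0867), with 0.34 on its other probe set, and 0.10 at 48 h; it was picked after the values were seen. ATP5IF1, the inhibitor that stops ATP synthase from running in reverse when respiration fails, read 11.43 and 11.69 at 48 h, against 11.93 and 11.86 in vehicle cells. The change was -0.33 ± 0.12 (limma adjusted p = 0.120). A further pair of ATP5IF1 probe sets had -0.09 and -0.19. ATP5MF was the highest at 4 h (0.30 ± 0.11, limma adjusted p = 0.533), but it was read by a dim probe set, since the brighter one names a second gene as well.

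**Figure D3:**
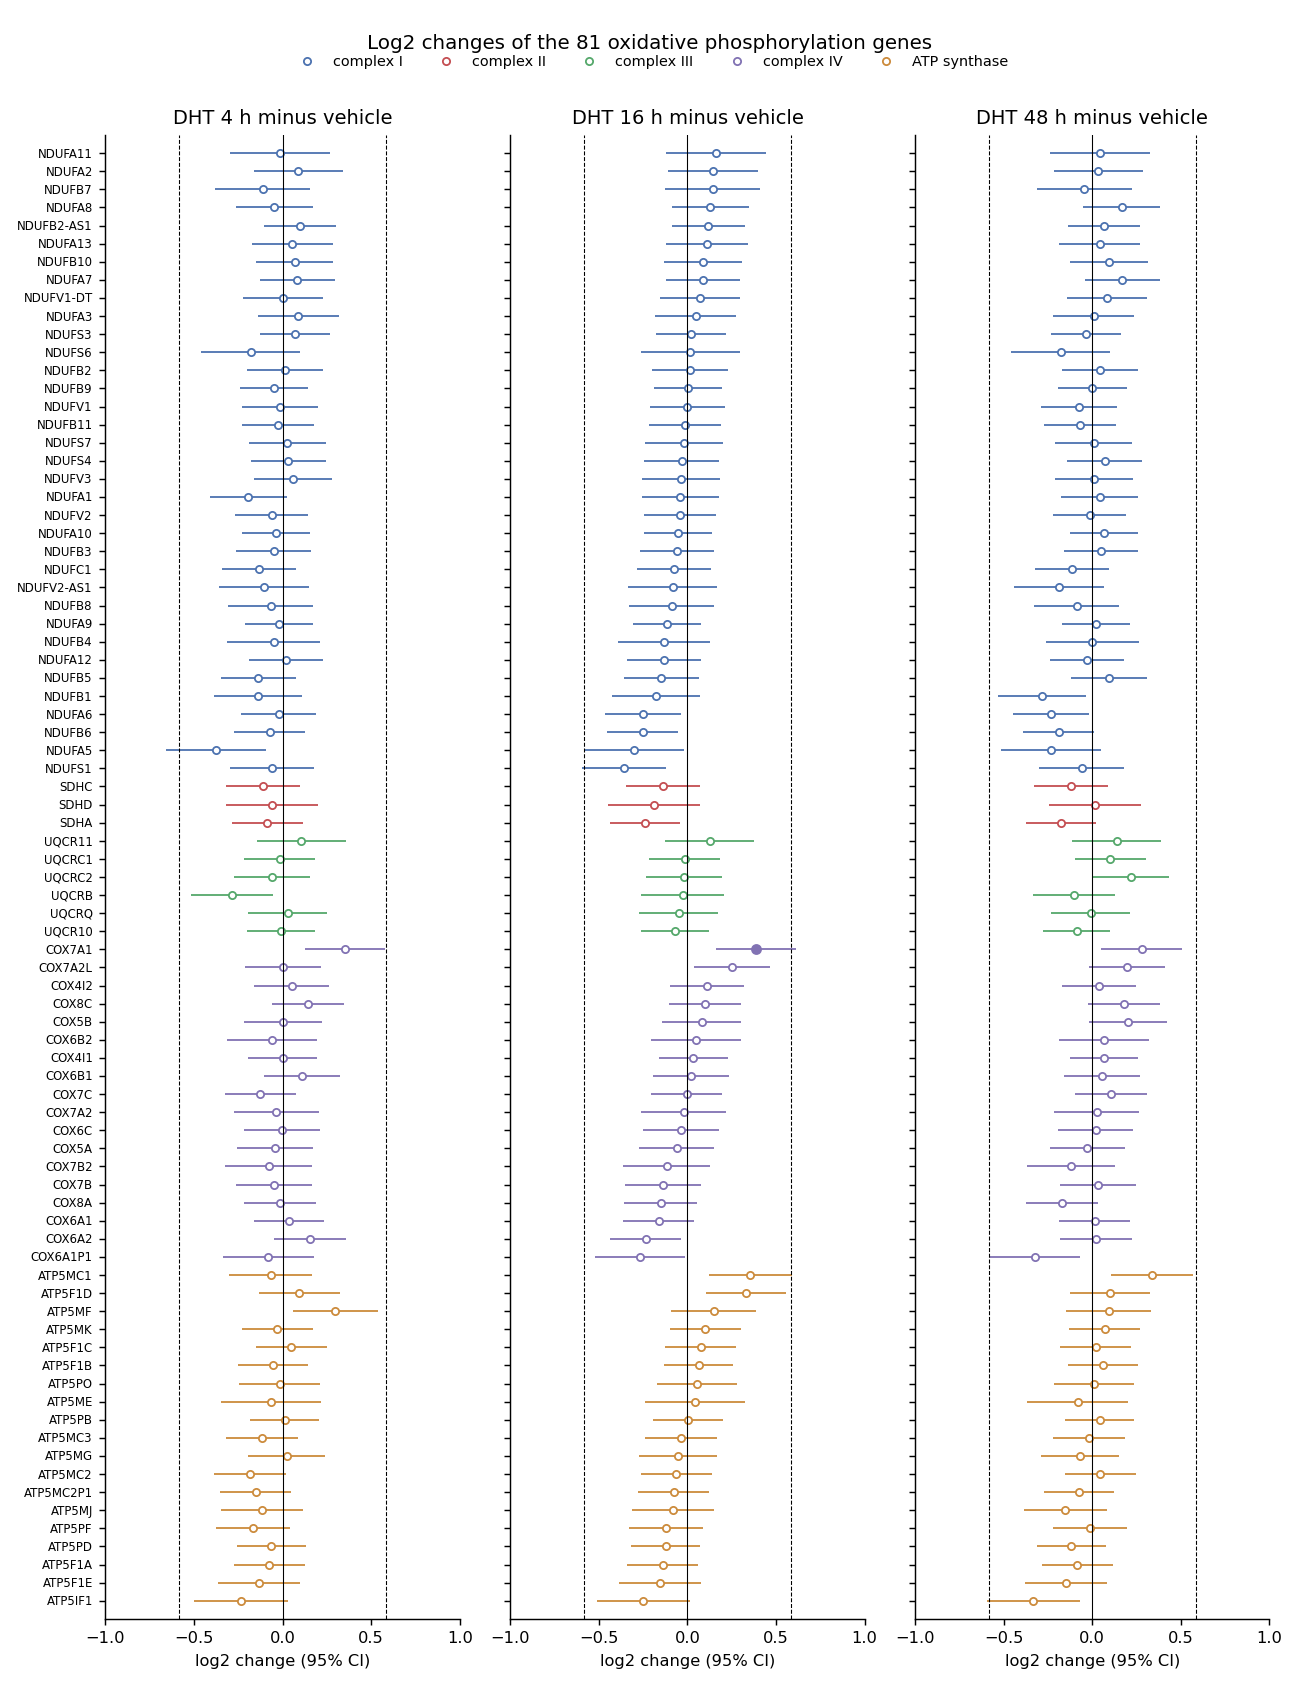
Log2 change from vehicle (points, horizontal axis) with its 95% confidence interval (lines) for all 81 members at 4, 16 and 48 h of DHT, coloured by complex and ordered within each complex by the change at 16 h. Filled points have an adjusted p below 0.05, dashed lines mark 1.5-fold in each direction, and COX7A1 at 16 h is the filled point.

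**Figure D4:**
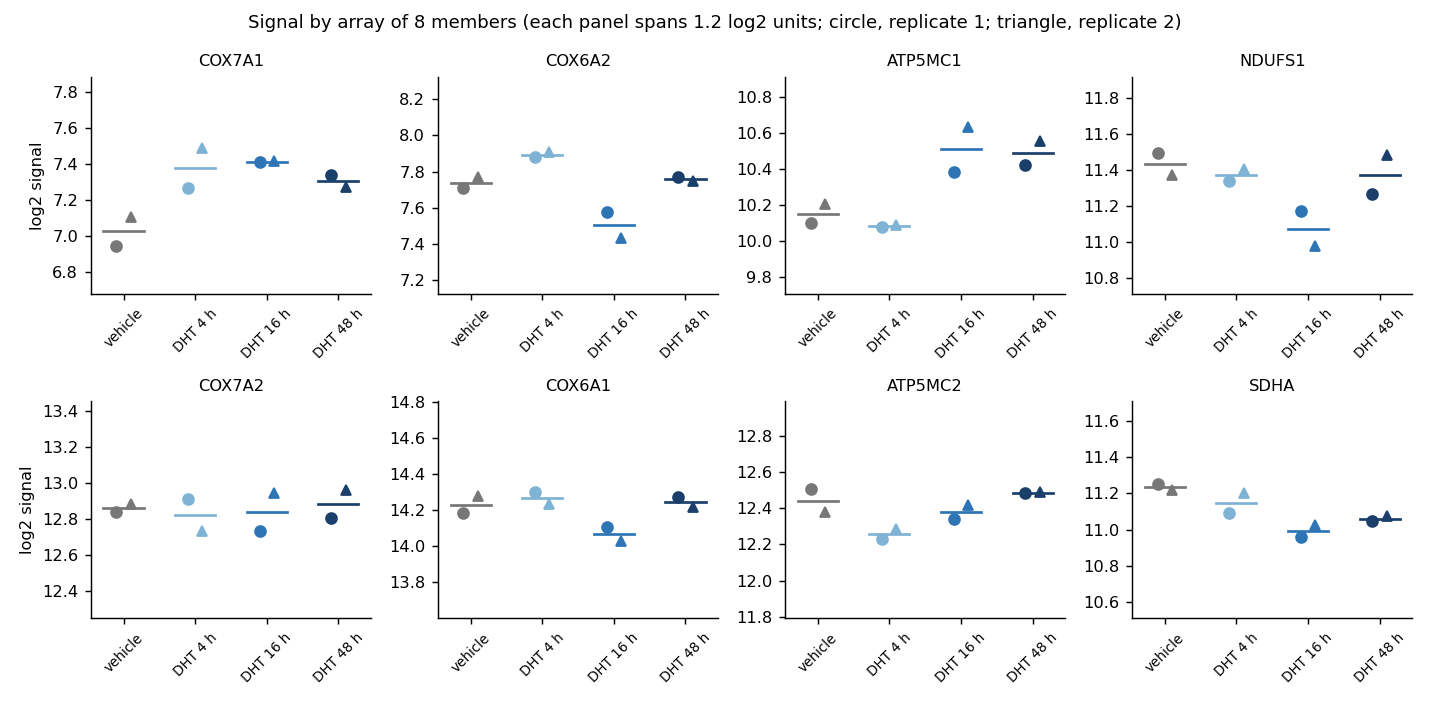
Log2 signal on each array (circles, replicate 1; triangles, replicate 2) and group mean (lines) of 8 members for vehicle and DHT at 4, 16 and 48 h, with 1.2 log2 units in each panel. The DHT arrays of COX7A1 all lie above the vehicle arrays, COX6A2 is lowest at 16 h, ATP5MC1 is higher at 16 and 48 h, and NDUFS1 is lowest at 16 h.

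There were 75 further probe sets for 45 members, and in a fit over all 41091 probe sets that name 1 gene, 0 of the 75 were called in any comparison. Of all probe sets in that fit 0.0195% were called at 4 h, 3.39% at 16 h, 5.16% at 48 h, 1.08% between 16 h and 4 h and 0.18% between 48 h and 16 h. At 16 h, 8 of them had an unadjusted p below 0.05, and at 48 h 3. Their median log2 change was -0.02 at 4 h, -0.01 at 16 h and -0.01 at 48 h. Single changes ranged from -0.29 to 0.35 at 4 h, from -0.58 to 0.44 at 16 h and from -0.34 to 0.44 at 48 h.

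Genes that act beside the chain changed in several places. The counts of their lists are read against 6.85% of all genes and 14.3% of bright genes called at 16 h, and 9.51% and 19.3% at 48 h. How many genes of each list are bright was not counted. Of 10 measured switches by which low oxygen turns cells from respiration, 6 rose at 16 h, and 4 rose and 1 fell at 48 h (60% and 50% called), with a list median of 0.42 and 0.36. PDK1, the kinase that closes pyruvate dehydrogenase, rose by 1.11 ± 0.14 at 16 h (limma adjusted p = 0.00056) and by 1.68 ± 0.14 at 48 h (limma adjusted p = 1.4e-05). It read 10.61 and 10.70 at 48 h, against 8.98 and 8.97 in vehicle cells. BNIP3, a receptor for the removal of mitochondria, rose by 1.42 ± 0.10 and 1.51 ± 0.10. Its relative BNIP3L rose by 0.60 and 0.94, and LDHA, which makes lactate, by 0.43 and 0.49. LONP1, a mitochondrial protease known to cut a form of subunit IV at low oxygen, rose by 0.42 at 16 h (limma adjusted p = 0.0465) and had 0.34 at 48 h. The gene that fell at 48 h was ISCU, the scaffold on which iron-sulphur clusters are built (-0.47, limma adjusted p = 0.0134), named after its values were seen. HIGD1A, which binds complex IV, had -0.07 and -0.18 with no call. At 4 h 0 of the 10 were called. Without DHT 16 h replicate 2, 4 of the 10 rose at 16 h, and 5 rose and 1 fell at 48 h, against 4.96% and 11.2% of all genes called in that fit. With the mean of all probe sets of a gene, PDK1 rose by 0.68 at 16 h. The LONP1 call at 16 h was kept in 1 of the 8 fits that left out an array.

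Pyruvate entry and the TCA cycle had 1 member higher and 3 lower of 20 at 16 h, and 1 higher and 2 lower at 48 h (20% and 15% called, near the shares of bright genes), with medians of -0.15 and -0.05. MPC2, a subunit of the mitochondrial pyruvate carrier, rose by 0.69 ± 0.09 at 16 h and 0.92 ± 0.09 at 48 h (limma adjusted p = 5.6e-05). PDHB, a subunit of pyruvate dehydrogenase, fell by 0.39 at 16 h and by 0.49 at 48 h. DLD, the dihydrolipoamide dehydrogenase that this enzyme shares with the TCA cycle, fell by 0.61 ± 0.09 at 16 h (limma adjusted p = 0.0025) and had -0.31 at 48 h. PC, pyruvate carboxylase, fell by 0.37 and by 0.40, and its call at 16 h was kept in 2 of the 8 fits that left out an array. With the mean of probe sets, DLD fell by 0.37 at 16 h, and PC lost both calls when all probe sets were tested. With DHT 16 h replicate 2 left out, 1 member was called higher and 1 lower at 16 h.

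Among 18 mobile carriers and enzymes that feed electrons to ubiquinone, 0 were higher and 4 lower at 16 h, and 0 higher and 3 lower at 48 h (22.2% and 16.7% called, the second below the share of bright genes), with medians of -0.04 and -0.02. ETFA, a subunit of the flavoprotein that collects electrons from fatty acid oxidation, fell by 0.61 ± 0.09 at 16 h (limma adjusted p = 0.0023) and by 0.42 at 48 h. ETFDH, which passes these electrons to ubiquinone, fell by 0.51 at 16 h. GPD2, the mitochondrial glycerol phosphate dehydrogenase, fell by 0.62 and by 0.61, and COQ2, an enzyme of ubiquinone synthesis, by 0.56 and by 0.39. With the mean of probe sets COQ2 had -0.26 and -0.21 and lost both calls. ETFDH at 16 h and GPD2 at 48 h also lost the call with that mean. When all probe sets were tested, ETFDH at 16 h and COQ2 at 48 h lost it. CYCS, cytochrome c, had 0.25 and 0.17, with no call. The count of 4 lower at 16 h was the same without DHT 16 h replicate 2. Of 7 subunits and associated proteins whose symbols the rule leaves out, 0 were called. This list shares HIGD1A with the switches above. CYC1, the cytochrome c1 of complex III, had 0.22 at 16 h and 0.31 at 48 h (limma adjusted p = 0.0671 at 48 h).

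Of 57 assembly factors, 5 were higher and 2 lower at 16 h, and 6 higher and 5 lower at 48 h, with medians of 0.06 and 0.08. These were 12.3% and 19.3% of the list, against 6.85% and 9.51% of all genes and 14.3% and 19.3% of bright genes. Without DHT 16 h replicate 2 the counts at 16 h were 0 higher and 1 lower. For complex I, NDUFAF4 rose by 0.47 at 16 h, NDUFAF6 fell by 0.61 at 48 h, NDUFAF7 fell by 0.44 and by 0.38, and DMAC2 fell by 0.46 at 48 h. With the mean of probe sets NDUFAF7 and DMAC2 both had -0.22 at 48 h and lost the call. For complex III, 3 of 6 rose at 48 h, namely BCS1L (0.41) and LYRM7 (0.59), which insert the Rieske iron-sulphur protein, and TTC19 (0.40). BCS1L and LYRM7 lost the call when all probe sets were tested, and each of the 3 lost it with some arrays left out. Over the alternatives the changes ranged from 0.31 to 0.52 for BCS1L, 0.44 to 0.73 for LYRM7 and 0.36 to 0.45 for TTC19. For complex IV, SCO2, which delivers copper, rose by 0.46 at 16 h, and COX18, which inserts subunit II into the membrane, rose by 0.53 and 0.56. With the mean of probe sets COX18 had 0.18 and 0.16 and lost both calls, and at 16 h the call was kept in 1 of the 8 fits that left out an array. COX11, another copper factor, fell by 0.44 at 48 h and CMC2 fell by 0.54 ± 0.09 and by 0.55 ± 0.09. Of 4 factors for complex II and 5 for ATP synthase, 0 were called, with 2 and 0 at an unadjusted p below 0.05 at each of 16 h and 48 h.

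The regulators of mitochondrial biogenesis had 2 of 15 higher at 16 h, and 1 higher and 1 lower at 48 h (13.3% called at each time), with medians of 0.10 and 0.06. ESRRG, an estrogen-related receptor, rose by 0.36 at 16 h, a call lost when any 1 array was left out, and by 0.78 ± 0.09 at 48 h (limma adjusted p = 0.00030). TWNK, the mitochondrial DNA helicase, rose by 0.49 at 16 h, and GABPB1, a subunit of GABP, fell by 0.38 at 48 h. The coactivator PPARGC1A had -0.01 at 16 h and 0.08 at 48 h. NRF1 had 0.00 and -0.10, ESRRA had 0.10 and 0.10, and TFAM, which packages mitochondrial DNA, had -0.05 and -0.31, all with no call. Leaving out DHT 16 h replicate 2, 0 of 15 were called at 16 h. Of 9 carriers of ADP and phosphate, uncouplers and outer membrane channels, 1 rose at each of 16 h and 48 h, the channel VDAC1 (0.44 and 0.54) on a probe set of the _s_at kind. With probe sets of the _x_at and _s_at kinds left out, VDAC1 had -0.03 at 16 h and 0.0074 at 48 h, and lost both calls.

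**Figure D5:**
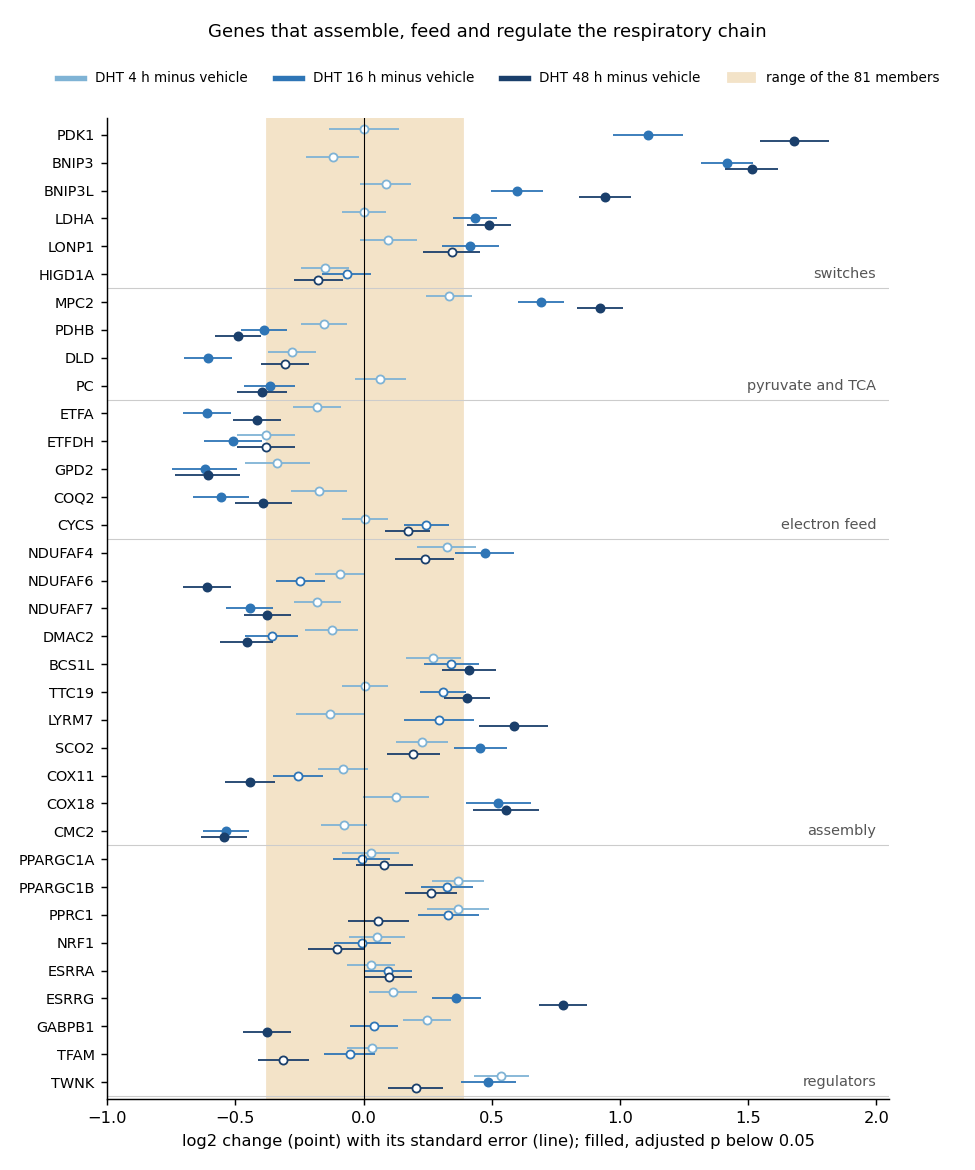
Log2 change from vehicle (points; lines are standard errors) of genes that switch, feed, assemble and regulate the respiratory chain, at 4, 16 and 48 h of DHT, with filled points at an adjusted p below 0.05. The shaded band is the range of the 81 members over the 3 times, from -0.38 to 0.39, and PDK1, BNIP3, BNIP3L, MPC2 and ESRRG are among the genes to its right at 48 h.

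The luminal epithelial markers were present on all arrays, with KRT18 at 13.69 to 13.92 and ERBB2 at 12.85 to 13.53. Of 8 such markers, 1 was higher (KRT19, 0.58) and 2 lower at 16 h, and 1 higher (0.68) and 4 lower at 48 h. Those lower at 48 h included GATA3 (-0.85) and FOXA1 (-0.72). At 16 h 37.5% of this list was called, against 6.85% of all genes and 14.3% of bright genes. At 48 h it was 62.5%, against 9.51% and 19.3%. Of 6 mesenchymal and 6 immune and endothelial markers, 0 were called at any time. Of 3 basal markers, KRT5 rose at 48 h (0.51 ± 0.10). Their part in the values of the members was not tested.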

How the data were processed

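The deposited table holds log2 signals that the submitters normalised by RMA (robust multi-array average), per the submitters' processing notes (version not given in the sources used here). Control probe sets were set aside, and each gene was read by its brightest probe set among those that name 1 gene. Probe sets that may match several transcripts (_x_at, _s_at) stood for 42 members. Further, 15 probe sets that name a matching symbol together with another gene were left out. No low signal was filtered.

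A linear model of 4 group means was fitted to all 8 arrays and 19775 genes with limma 3.58.1 in R 4.3.3, with two-sided tests and Benjamini-Hochberg adjustment over all genes, and called at adjusted p below 0.05. Errors are standard errors from this fit. The p-values weigh each difference against the spread between biological replicates (2 a group), pooled over the 4 groups. That spread was drawn towards a prior taken from all genes, with 4 residual and 7.21 prior degrees of freedom. The number of arrays limits precision. The fit was tested on simulated data.

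The members, the gene lists and the naming rule were chosen with earlier results of these data known. The brightness class and the grouping by role were chosen after the values were seen. The naming rule took every called member, the highest and lowest change of each complex at each time, the complex IV isoforms, up to 4 called genes of each list with the largest change, and a few fixed regulators. The model holds no term for the replicate number. Deviations of same-numbered arrays correlated at -0.24 to 0.20. These values cannot settle whether the numbers pair the samples, and the labels do not say whether same-numbered arrays were handled together. Alternatives covered the choice of probe set, normalisation, model and arrays. Promoter windows are RefSeq's, searched on both strands (Python 3.11.15). A motif among those searched is not reported here.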

Additional observations from a re-analysis of the deposited data

Results flagged for a closer look

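The genes listed here were taken by the naming rule and passed the threshold in the test of the difference between 16 h and 4 h of DHT. Both times were compared with the same vehicle arrays. Of all genes, 3.05% passed. Further genes of the lists passed and are not given here, among them 1 luminal and 1 basal marker. COX6A2, the muscle isoform of complex IV subunit VIa, had a log2 difference of -0.39 ± 0.09 (SE, n = 2 each, limma adjusted p = 0.0444). The other genes are not members. The complex IV assembly factor CMC2 had -0.46 ± 0.09 (limma adjusted p = 0.0192), ETFA had -0.43 ± 0.09 (limma adjusted p = 0.0302) and PC had -0.43 ± 0.10 (limma adjusted p = 0.0400). PDK1 had 1.11 ± 0.14 (limma adjusted p = 0.0010), BNIP3 had 1.54 ± 0.10 (limma adjusted p = 8.9e-06), BNIP3L had 0.51 ± 0.10 and LDHA had 0.43 ± 0.09 (both limma adjusted p = 0.0201). In each of these genes both arrays at 16 h lay on the same side of both arrays at 4 h. The same held for 42.4% of all genes and 56.2% of bright genes. The genes were listed by a test on these same arrays, so the separation adds no support. Without DHT 16 h replicate 2, PDK1 had 0.91, BNIP3 1.49, BNIP3L 0.59, LDHA 0.44 (limma adjusted p = 0.0633), PC -0.42 (limma adjusted p = 0.145), CMC2 -0.48 (limma adjusted p = 0.0555), ETFA -0.38 (limma adjusted p = 0.146) and COX6A2 -0.32 (limma adjusted p = 0.230). With the mean of all probe sets of a gene PDK1 had 0.53, and with the _x_at and _s_at kinds left out BNIP3L had 0.96.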

How the results depend on the processing

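Against vehicle at 16 h the count was 1 of 81 members (6.85% of all genes). It was 0 when all probe sets were tested (4.11% of all genes). Without those of the _x_at and _s_at kinds it was 0 of 69 members (5.23%). With the replicate block (6.38%) and with only the 2 groups compared (4.04%) it was 0 too. With quantile normalisation it was 2 (ATP5F1D and ATP5MC1, with COX7A1 lost), against 7.72% of all genes. At 48 h it was 1 with quantile normalisation (9.81% of all genes), against 0 (9.51%). Between 16 h and 4 h it was 1 (3.05% of all genes). There it was 0 with all probe sets (1.34%) and without the _x_at and _s_at kinds (2.06%). The replicate block (2.76%) and only the 2 groups (1.53%) also gave 0. It was 2 with the dimmest 25% of genes left out (4.62%), with quantile normalisation (3.54%) and with an intensity trend in the prior (3.78%). The F test gave 0 with all probe sets, without the _x_at and _s_at kinds and with a housekeeping shift, against 1. Leaving out each array gave 0 to 3 members at 16 h, 0 to 1 at 48 h, 0 to 2 between 16 h and 4 h, and 0 to 1 by the F test. The 3 members at 16 h were ATP5F1D and ATP5MC1 (higher) and NDUFS1 (lower), without DHT 16 h replicate 1. With the replicate block, COX7A1 at 16 h had limma adjusted p = 0.0558 and COX6A2 between 16 h and 4 h had 0.0675. Whether the replicate numbers pair the arrays is not known.

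Of 306 alternative values of the 18 median changes, 276 moved by less than the spread between replicates. Under the housekeeping shift the 4 h medians were -0.039 for complex II, 0.045 for complex IV and 0.011 for all members, and the 48 h medians -0.16 for complex II and -0.0050 for complex IV. Without the _x_at and _s_at kinds the 16 h medians were -0.27 for complex II (2 members), 0.021 for complex IV and 0.050 for ATP synthase, and the 48 h medians -0.080 for complex II and 0.043 for ATP synthase. The mean of probe sets gave 0.025 for complex IV at 16 h, and quantile normalisation -0.055 for complex II at 48 h. Leaving out each array gave medians at 4 h of -0.14 to -0.057 for complex II and -0.029 to 0.041 for complex IV. At 16 h it gave -0.25 to -0.18 for complex II, -0.074 to 0.051 for complex III, -0.062 to 0.026 for complex IV, -0.092 to 0.011 for ATP synthase and -0.072 to 0.014 for all members. At 48 h it gave -0.054 to 0.044 for complex I, -0.16 to -0.064 for complex II, 0.015 to 0.083 for complex IV, -0.069 to 0.042 for ATP synthase and -0.036 to 0.044 for all members. Of 868 alternative values of 52 called results of single genes, 667 kept the call, and 1 of those that lost it turned, VDAC1 at 16 h (-0.030, limma adjusted p = 0.919, without the _x_at and _s_at kinds). The cause was not tested. With 2 arrays a group and 4 residual degrees of freedom, small changes near the threshold are not firmly placed, and COX7A1 and COX6A2 were read by dim probe sets.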
